A study of Mus musculus with 13 samples.

Results

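The clones described here were scarce among the transduced progenitors and grew to between 0.1% and 1% of the leukaemia of at least 1 mouse. They were chosen by 2 measured values. A barcode had to lie above 0 and under 100 CPM (reads per 1000000 of a library) in the baseline library, and the mean of its bone marrow and spleen CPM had to be highest, over the 6 mice, at 1000 or more and under 10000 CPM. Of 2505 barcodes, 1465 were rare at baseline in this sense and 31 of those (2.12%) met the disease limits. Among the remaining rare barcodes, 1426 stayed under 1000 CPM in every mouse and 8 reached 10000 CPM or more.

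MLL-AF9 leukaemia cells, which carry a fusion oncogene, were barcoded with SPLINTR libraries and transplanted into 2 host strains. The hosts were 3 Ptprca mice (mice 1, 2 and 3), a C57BL/6 congenic strain with a working immune system, and 3 NSG mice (mice 4, 5 and 6), whose T, B and natural killer cells are missing and whose myeloid cells remain. At disease, viable cells were sorted from the bone marrow and from the spleen of every mouse for 1 library each, and c-Kit positive haematopoietic progenitors gave 1 baseline library. All 4 disease groups carried the same kind of barcode and the same oncogene. The sources used here give neither the age and sex of the mice nor the number of cells each received.

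A DNA barcode is a heritable tag: it enters the genome of a founder cell by viral transduction and is copied to all descendants, so the share of a barcode among reads stands for the share of that founder's clone. MLL-AF9 confers self-renewal on myeloid progenitors and gives rise to acute myeloid leukaemia in mice, which fills the bone marrow and spreads to the spleen. Clones of equal starting size can differ widely in how far they contribute to such a leukaemia. Several cells can carry the same barcode and a cell can carry several, so a barcode is read here as a clone by convention. CPM values are shares, and a fall in the share of a clone cannot be told apart from growth of the other clones in the same library.

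Each library held 2484519 to 5252942 reads in 2 technical repeats, and a value worth 3 reads in the shallower repeat, used as a floor, lay between 0.575 and 8.80 CPM. The repeats differed most in the spleens of the NSG mice, where the log2 ratio of 1 repeat to the other had an SD of 1.57 to 2.26, against at most 0.585 in the other libraries. Low values were also shared between some bone marrow libraries. The 3 members that reached 1000 CPM in Ptprca mouse 1 bone marrow and were at 100 CPM or more in no other mouse (GFP_Barcode_21751, GFP_Barcode_15141 and GFP_Barcode_63118) all appeared in NSG mouse 5 bone marrow at 0.279% to 0.383% of their mouse 1 level. The 3 members with the same pattern for NSG mouse 5 (GFP_Barcode_17839, GFP_Barcode_50484 and GFP_Barcode_55117) all appeared in Ptprca mouse 1 bone marrow at 0.0724% to 0.105%, and 2 of them in NSG mouse 6 bone marrow at 0.294% and 0.376%. The highest of these shared values was 50.2 CPM. Other mice had low values in common as well. GFP_Barcode_7130 and GFP_Barcode_14774 reached a mouse mean of 100 CPM in Ptprca mouse 2 alone. In Ptprca mouse 1 they were at 28.1 and 9.47 CPM in bone marrow and at 73.6 and 36.4 CPM in spleen. Low values of that size were therefore not read as presence of a clone, and a member is called seen in a mouse below only where the mean of its organs was 100 CPM or more. Why these libraries share low values was not tested.

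Most barcodes that were rare among the progenitors were not detected at disease. Of the 1465 rare barcodes, 1256 (85.7%) were at 0 in all 12 disease libraries, 50 had a highest mouse mean above 0 and under 10 CPM, 70 lay from 10 to under 100 CPM and 50 from 100 to under 1000 CPM. The 31 members and the 8 larger clones were thus the upper end of a short tail. At the lower disease limit, GFP_Barcode_40272, GFP_Barcode_8504 and GFP_Barcode_116493 lay just outside at 889, 934 and 954 CPM, while GFP_Barcode_115631, GFP_Barcode_5752 and GFP_Barcode_24282 lay just inside at 1063, 1127 and 1178 CPM. At the upper limit, GFP_Barcode_81719, GFP_Barcode_57929 and GFP_Barcode_3998 were inside at 7079, 7305 and 8039 CPM, and GFP_Barcode_33008, GFP_Barcode_28411 and GFP_Barcode_49214 were outside at 10869, 13276 and 14266 CPM. At the baseline limit, GFP_Barcode_15141, GFP_Barcode_95320 and GFP_Barcode_57652 were inside at 88.4, 92.0 and 93.5 CPM, and GFP_Barcode_8742, GFP_Barcode_42726 and GFP_Barcode_23154 were outside at 110, 111 and 111 CPM.

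Members were found at low and high levels within the rare range. Their baseline CPM ran from 3.25 to 93.5 with a median of 29.8, worth 18 to 472 reads with a median of 148. The other 1434 rare barcodes had a median of 13.8 CPM (quartiles 3.75 and 37.9, lowest 0.178, highest 99.3). In 20 CPM steps, members were 12 of 846 rare barcodes up to 20 CPM (1.42%, 95% Wilson interval 0.813% to 2.46%), 5 of 268 from 20 to 40 CPM (1.87%, 0.799% to 4.29%) and 2 of 152 from 40 to 60 CPM (1.32%, 0.362% to 4.67%). They were 7 of 117 from 60 to 80 CPM (5.98%, 2.93% to 11.8%) and 5 of 82 from 80 to 100 CPM (6.10%, 2.63% to 13.5%). The share was largest in the steps above 60 CPM, and the lowest step held the largest number of members. Both are descriptions, since the rule used baseline and disease levels. The intervals treat barcodes as independent draws and cover counting error only, because amplified reads carry no molecule tags and are not independent.

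The low baseline levels of the members rested on both technical repeats in all but 1 case. Of the 31 members, 30 (96.8%) had reads in both baseline repeats, against 1173 of the other 1434 rare barcodes (81.8%). The exception was GFP_Barcode_55117, with 0 reads in the first repeat and 30 in the second. GFP_Barcode_57929 had 3 and 33 reads (1.07 and 15.2 CPM) and GFP_Barcode_7130 had 17 and 1 (6.04 and 0.461 CPM), so the folds over baseline of these 3 members are the least certain.

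The highest mouse mean of the members ran from 1063 to 8039 CPM with a median of 2498, and it was 15.8 to 978 times the baseline level (median 73.1), a ratio that the choice of members fixes in direction. In single libraries, 18 of the 31 members stood at 100 times baseline or more, 8 at 500 times or more and 3 at 1000 times or more. GFP_Barcode_7130, the member with the lowest baseline level (3.25 CPM), was at 4537 CPM in bone marrow and 1822 CPM in spleen of Ptprca mouse 2. GFP_Barcode_17839 rested on 9.02 CPM at baseline and was at 13354 CPM in NSG mouse 5 bone marrow, a ratio of 1480, the highest of all members. In 23 members the highest library could be resolved into its repeats, and the higher repeat was 1.00 to 1.34 times the lower (median 1.08). The other 8 were not resolved, among them the highest peaks, GFP_Barcode_17839 included. The ratios to baseline also carry the error of a small baseline count.

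Together the members took 0.132% of baseline reads and 1.02% to 6.63% of the bone marrow of each mouse at disease. In Ptprca bone marrow their summed share was 5.21%, 6.63% and 4.64% (mean 5.49% ± 1.02, SD, n = 3), and in NSG bone marrow it was 3.32%, 3.21% and 1.02% (2.51% ± 1.30, SD, n = 3). In the spleen the sum was lower, at 1.72%, 1.502% and 0.627% in Ptprca (1.28% ± 0.580, SD, n = 3) and 0.325%, 0.102% and 0.276% in NSG mice (0.234% ± 0.117, SD, n = 3). In both organs each Ptprca mouse lay above each NSG mouse. The 142 barcodes of the same disease range with 100 CPM or more at baseline also separated in bone marrow. They took 24.4% to 25.1% of it in Ptprca and 18.6% to 22.6% in NSG mice. In spleen they overlapped, at 6.23% to 10.6% and 8.32% to 17.5%. The rare barcodes under 1000 CPM were lower in Ptprca than in NSG bone marrow, at 0.364% to 0.721% against 0.779% to 1.13%. No test was made on these sums, because the members were selected on levels in the same libraries. Bone marrow exceeded spleen in each of the 6 mice, by 3.02, 4.41 and 7.40 times in mice 1, 2 and 3 and by 10.2, 31.4 and 3.70 times in mice 4, 5 and 6. In NSG mouse 5 the members' share of the spleen was below their share of the baseline library, at 0.775 times it.

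No member held most of a bone marrow sum, whereas 1 member held most of the sum in 3 of the 6 spleens. The largest member was 24.4%, 19.6% and 22.7% of the members' sum in the bone marrow of the Ptprca mice, where GFP_Barcode_122306 led in mice 1 and 3 and GFP_Barcode_81719 in mouse 2. It was 40.0%, 41.6% and 49.2% in NSG bone marrow, led by GFP_Barcode_14829, GFP_Barcode_17839 and GFP_Barcode_57652. In the spleens, GFP_Barcode_3998 was 60.8% of the sum in mouse 1, GFP_Barcode_95320 was 60.7% in mouse 4 and GFP_Barcode_57929 was 79.3% in mouse 6. Without the largest member of each library, the sums were 3.94%, 5.32% and 3.58% in Ptprca and 1.99%, 1.87% and 0.518% in NSG bone marrow, with each Ptprca mouse still above each NSG mouse.

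The 8 rare barcodes that reached 10000 CPM or more took 21.6% to 37.2% of the Ptprca spleens and 2.01% to 6.01% of the Ptprca bone marrows. Most of the spleen share came from GFP_Barcode_117983, at 123920, 186965 and 366541 CPM in the spleens of mice 1, 2 and 3 against 2248, 9145 and 5090 CPM in their bone marrow. The 1426 rare barcodes under 1000 CPM took 0.140% to 0.240% of the Ptprca spleens and 0.364% to 0.721% of the Ptprca bone marrows. In bone marrow the members' sum was above that of the 8 larger rare clones in mice 1, 2, 4 and 6 and below it in mice 3 and 5. The larger clones took 0.637%, 4.09% and 0.292% of the bone marrow of NSG mice 4, 5 and 6.

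More members peaked in Ptprca than in NSG hosts. The mouse with the highest mean was a Ptprca mouse for 22 of the 31 members (71.0%) and an NSG mouse for 9 (29.0%). By mouse, 8, 8 and 6 members peaked in Ptprca mice 1, 2 and 3, and 5, 3 and 1 in NSG mice 4, 5 and 6. A mean of 1000 CPM or more was reached by 11, 10 and 9 members in the Ptprca mice and by 5, 5 and 3 in the NSG mice. At the lower limit of 100 CPM the numbers were 14, 14 and 13 against 9, 9 and 7, so the strains did not overlap at either limit. These counts use the mouse means by which the members were chosen, so they describe the members and support nothing beyond them. As a reference, 142 barcodes with 100 CPM or more at baseline had their highest mouse mean in the same disease range, and 72 of them (50.7%) peaked in a Ptprca mouse. The difference between the shares was not tested, since the barcodes of a mouse compete for the same reads. In single bone marrow libraries, 10, 9 and 9 members were at 1000 CPM or more in Ptprca and 6, 5 and 3 in NSG mice. The reference barcodes there numbered 49, 46 and 51 in Ptprca and 50, 48 and 53 in NSG mice, and so overlapped. In spleen libraries the counts of both sets overlapped between the strains.

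Expansion was mostly an event of a single mouse. At 1000 CPM or more, 21 members (67.7%) were found in 1 mouse, 8 in 2 mice and 2 in 3 mice, the last being GFP_Barcode_122306 and GFP_Barcode_57652. By strain, 20 members reached this level in Ptprca mice alone, 8 in NSG mice alone and 3 in both, these being GFP_Barcode_57929, GFP_Barcode_17862 and GFP_Barcode_6161. The reference barcodes, more abundant at baseline, were spread over more mice, with 41 of 142 (28.9%) at 1000 CPM or more in at least 3 mice and 54 of 142 (38.0%) in both strains. At 100 CPM or more, 14 members were seen in 1 mouse, 8 in 2, 2 in 3 and 7 in 4 or more, and GFP_Barcode_57652 alone was seen in all 6, against 32 of the 142 reference barcodes.

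Since the rule took the highest of 6 mice, recurrence was measured in a mouse the choice did not use. Each mouse was left out in turn, rare barcodes with a highest mean from 1000 to under 10000 CPM in the other 5 mice were chosen afresh, and their level in the left-out mouse was read. Of 169 such readings, 26 (15.4%) were at 1000 CPM or more in the left-out mouse, against 24 of 8580 readings of the rare barcodes that stayed lower in the other 5 mice (0.280%). The share was 23.1%, 25% and 24.1% in left-out Ptprca mice 1, 2 and 3, from 6 of 26, 7 of 28 and 7 of 29 barcodes. In left-out NSG mice 4, 5 and 6 it was 7.14%, 7.14% and 6.67%, from 2 of 28, 2 of 28 and 2 of 30. It lay between 0.0701% and 0.488% for the other rare barcodes. In every left-out mouse the chosen barcodes thus reached the limit more often than the others, in each NSG mouse through 2 barcodes. GFP_Barcode_57652 was 1 of the 2 in all 3 NSG mice. The chosen and the other barcodes were not matched for baseline level, and most rare barcodes were not detected at disease. At a limit of 100 CPM, 49 of 169 readings (29.0%) and 104 of 8580 (1.21%) reached it. The same barcodes enter several of these turns, so the counts carry no p.

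The recurrence also crossed host strains. Of 23 barcodes chosen from the Ptprca mice alone, 3 (13.04%, 95% Wilson interval 4.54% to 32.1%) reached 1000 CPM in at least 1 NSG mouse, against 10 of 1436 other rare barcodes (0.696%, 0.379% to 1.28%). Of 12 barcodes chosen from the NSG mice alone, 4 (33.3%, 13.8% to 60.9%) reached 1000 CPM in at least 1 Ptprca mouse, against 24 of 1450 (1.66%, 1.11% to 2.45%). GFP_Barcode_57929, GFP_Barcode_17862 and GFP_Barcode_6161 are the 3 of the first count and 3 of the 4 of the second. The 2 counts are therefore not separate results. The remaining barcode of the 4 was GFP_Barcode_43077, which is no member, since its highest mouse mean was 55663 CPM. The intervals of these shares cover counting error over barcodes of the same 6 mice, which are not replicates, and no test was made.

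GFP_Barcode_122306 recurred in every Ptprca mouse at nearly the same level. It held 78.7 CPM at baseline and 12733, 12399 and 10539 CPM in the bone marrow of Ptprca mice 1, 2 and 3, against 102, 189 and 57.9 CPM in NSG mice 4, 5 and 6. The groups were far apart and did not overlap. Its spleen values were 245, 1270 and 739 CPM in the Ptprca mice and 18.8, 21.2 and 58.1 CPM in the NSG mice, again without overlap, and the NSG spleen values of mice 4 and 5 came from 1 repeat each. The NSG bone marrow levels, a mean of 116 CPM, were close to the baseline level, while the Ptprca mean was 11890 CPM.

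In the limma comparison of strains in bone marrow, 4 of 373 barcodes tested (1.07%) passed a Benjamini-Hochberg adjusted p of 0.05, and 1 of the 23 members tested was among them. That member was GFP_Barcode_122306, lower in NSG mice, and on the log2(CPM + 1) scale the difference, NSG minus Ptprca, was -6.82 (SE 1.05, n = 3 mice a strain, limma adjusted p = 0.0283). The call ended when any 1 mouse was left out (limma adjusted p = 0.0586 to 0.114). It ended without the bone marrow libraries of mice 1 and 5, which share low values (limma adjusted p = 0.240). It also ended with the mouse as a random block (limma adjusted p = 0.0712). Each mouse has 1 bone marrow library, so that fit took in the spleen libraries, and the SE was 1.73 against 1.05. The part of the block alone was not tested. The difference kept its sign and stayed between -7.25 and -6.41 over the left-out mice.

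The other 8 members (GFP_Barcode_4815, GFP_Barcode_11384, GFP_Barcode_14829, GFP_Barcode_15141, GFP_Barcode_21107, GFP_Barcode_50484, GFP_Barcode_51535 and GFP_Barcode_69220) did not enter the fit, because they lay at 10 CPM or more in fewer than 3 disease libraries. Of the 23 that did, 16 were lower and 7 higher in NSG bone marrow, with a median difference of -2.83 on the log2(CPM + 1) scale, against 148 lower and 225 higher among all 373 (median 0.80). An unadjusted p under 0.05 was found for 6 members, 1 higher and 5 lower in NSG, and for 15.8% of all barcodes tested. A member that enters through the strain where it is high had to differ, so these counts describe the members and support nothing beyond them.

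GFP_Barcode_57652 showed the reverse strain pattern in bone marrow. It started at 93.5 CPM, the highest baseline level of the members, and lay at 5470, 4846 and 5011 CPM in NSG mice 4, 5 and 6 against 148, 164 and 67.0 CPM in Ptprca mice 1, 2 and 3. The NSG values agreed closely among themselves and did not overlap with the Ptprca values. The difference was 5.42 on the log2(CPM + 1) scale (SE 1.12) and did not pass the threshold (limma adjusted p = 0.0637). It passed when barcodes were tested without the low-value filter (limma adjusted p = 0.0178) or with a filter of 100 CPM in 3 libraries (limma adjusted p = 0.0412), and missed the threshold under each of the others, with limma adjusted p = 0.279 for the mouse as a random block, 0.0586 to 0.278 with each mouse left out and 0.295 without the bone marrow libraries of mice 1 and 5. The random block fit again took in the spleen libraries. The sign of the difference was the same under every alternative run.

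The spleen of the same clone ran the other way between organs. GFP_Barcode_57652 was at 672, 1249 and 201 CPM in the Ptprca spleens, each above the bone marrow of the same mouse. In the NSG mice it was at 779, 0 and 124 CPM in spleen, each below the bone marrow of the same mouse. Repeats differed most in the NSG spleens, so the 0 in mouse 5 does not place the clone below the floor there. The organ difference (spleen minus bone marrow, log2 scale) was 2.22 (SE 2.09) in Ptprca and -6.79 (SE 2.09) in NSG mice. Neither passed the threshold (limma adjusted p = 1 and 0.144). With the mouse as a fixed block, the NSG difference also missed it (limma adjusted p = 0.0758). The interaction of -9.01 (SE 2.95) had an unadjusted p of 0.00716 and a limma adjusted p of 0.534 over 373 barcodes.

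Other members recurred in the Ptprca mice and were scarce in NSG bone marrow. GFP_Barcode_81719 was at 49.7, 13005 and 6849 CPM in the bone marrow of mice 1, 2 and 3 and at 3.22, 0 and 0 CPM in mice 4, 5 and 6. GFP_Barcode_56 was at 5302 and 5439 CPM in the bone marrow of mice 2 and 3, and at 0 in mouse 1 and in all 6 NSG libraries. GFP_Barcode_24282 was at 2191 and 2030 CPM in the bone marrow of mice 1 and 2, 0 in mouse 3, and at most 6.88 CPM in NSG bone marrow. In all 3 clones 1 Ptprca mouse lay far below the other 2. GFP_Barcode_56 and GFP_Barcode_24282 overlapped with the NSG values there. GFP_Barcode_81719 at 49.7 CPM lay above them, but a value of that size was not read as presence of a clone.

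The strain difference of these clones was large in size and did not pass the threshold. For GFP_Barcode_81719 it was -10.00 in bone marrow (SE 2.63, limma adjusted p = 0.108), the largest of all members. For GFP_Barcode_56 it was -8.26 (SE 3.54, limma adjusted p = 0.315). The Ptprca bone marrow mean of GFP_Barcode_56, 3580 CPM, was 5419 times the mean NSG floor of 0.661 CPM. GFP_Barcode_10910 was at 47.3, 211 and 3486 CPM in Ptprca and 5.87, 6.29 and 1.63 CPM in NSG bone marrow. The values did not overlap, but 47.3 CPM and the NSG values are of a size not read as presence of a clone. The difference was -6.01 (SE 2.30, limma adjusted p = 0.275).

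In the spleen, 4 of 373 barcodes (1.07%) differed between strains and 0 of the 23 members tested were among them, by limma with Benjamini-Hochberg adjustment. Without adjustment, 4 members had p under 0.05, all lower in NSG spleen, and 37 of all 373 barcodes did (9.92%). Of the 23, 18 were lower and 5 higher in NSG mice, with a median difference of -3.59 against -0.45 over all 373. GFP_Barcode_82925 had the largest difference. It was at 1113, 2092 and 76.1 CPM in the Ptprca spleens and at 0 in the 3 NSG spleens, although NSG mouse 6 held 1720 CPM in bone marrow. The groups did not overlap, and the Ptprca spleen mean of 1094 CPM was 1112 times the mean NSG floor of 0.984 CPM. Repeats differed most in the NSG spleens, so a 0 there does not place the clone below that floor. The fitted difference was -9.14 (SE 2.63, limma adjusted p = 0.175).

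The NSG spleens were the libraries in which members were most often absent. Of the 31 members, 17 were at 0 in all 3 NSG spleens and 6 in all 3 Ptprca spleens. The choice weighs on these counts, since 22 of the 31 peaked in a Ptprca mouse. Among member values of 10 CPM or more that could be resolved into repeats, 7 of 21 in the NSG spleens came from 1 repeat only, against 0 of 118 in the other disease libraries. The highest of these 7 was GFP_Barcode_95320 in the spleen of mouse 5, at 246 CPM, made of 0 reads in 1 repeat and 787 in the other. Values in 1 repeat only were not particular to members. Of all barcodes at 10 to under 1000 CPM, 72.3%, 59.8% and 73.75% had reads in both repeats in NSG spleens 4, 5 and 6. Spleen values of members in NSG mice are therefore less certain than the rest, and the part of the repeats in their low level was not tested.

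Within the mouse where it peaked, a member was nearly always higher in bone marrow than in spleen. This was so for 29 of the 31 members (93.5%), for 20 of the 22 that peaked in a Ptprca mouse and for all 9 that peaked in an NSG mouse. Of the 142 reference barcodes, 94 (66.2%) were higher in bone marrow in their top mouse, 58 of 72 in Ptprca and 36 of 70 in NSG mice. Among the 26 members with a spleen value above 0 in the top mouse, bone marrow over spleen ran from 0.0152 to 2138 with a median of 7.70. The rule averaged both organs and did not ask which was higher, but a high value in 1 organ was enough to enter. The upper limit also kept out rare clones that were higher in spleen in their top mouse. These were GFP_Barcode_12212, GFP_Barcode_33008, GFP_Barcode_43077 and GFP_Barcode_117983. The other rare clones above that limit, GFP_Barcode_28411, GFP_Barcode_29272, GFP_Barcode_43269 and GFP_Barcode_49214, were higher in bone marrow. The difference from the reference barcodes was not tested.

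The 2 exceptions were spleen clones of Ptprca mice. GFP_Barcode_3998 was at 5598 CPM in bone marrow and 10479 CPM in spleen of mouse 1, high in both organs, and at most 216 CPM in any other library. GFP_Barcode_115631 was at 31.9 CPM in bone marrow and 2094 CPM in spleen of mouse 2. In mouse 1 the same clone was at 703 CPM in bone marrow and 35.4 CPM in spleen, the opposite order. GFP_Barcode_101096 also changed order between mice, at 789 and 1828 CPM in bone marrow and spleen of mouse 1 and 6638 and 313 CPM in mouse 3.

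A group of members was found in NSG bone marrow and not in the matching spleen. In the top mouse, 5 of the 9 members that peaked in NSG mice were at 0 in spleen, against 0 of the 22 that peaked in Ptprca mice and 9 of the 70 reference barcodes that peaked in NSG mice. GFP_Barcode_14829, GFP_Barcode_69220 and GFP_Barcode_11384 were at 13253, 5769 and 3609 CPM in the bone marrow of mouse 4 and at 0 in its spleen. The bone marrow values were 11055, 4812 and 3010 times the spleen floor of 1.199 CPM. In that spleen only 72.3% of resolved values from 10 to under 1000 CPM had reads in both repeats. A 0 there therefore does not place a clone below the floor. GFP_Barcode_50484 was at 4999 CPM in mouse 5 bone marrow and GFP_Barcode_5752 at 2254 CPM in mouse 6 bone marrow, both at 0 in the matching spleen. The last of these was also seen elsewhere, at 415 and 733 CPM in bone marrow and spleen of mouse 1, at 70.1 and 150 CPM in mouse 3 and at 75.3 and 335 CPM in mouse 5.

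GFP_Barcode_69220 and GFP_Barcode_11384 were each found in 1 of the 12 disease libraries, the bone marrow of mouse 4. GFP_Barcode_14829 was found besides at 5.87 CPM in mouse 3 bone marrow, below the floor of 8.80 CPM there. GFP_Barcode_17839 and GFP_Barcode_55117, at 13354 and 4589 CPM in mouse 5 bone marrow, were at 6.25 and 18.1 CPM in its spleen. None of these 5 clones was seen in a second mouse at 100 CPM. Thus 7 of the 9 members that peaked in NSG mice, these 5 with GFP_Barcode_50484 and GFP_Barcode_5752, reached 1000 CPM in a single bone marrow library.

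Over all mice in which a member was seen, bone marrow was higher in 31 of 41 member and mouse pairs in Ptprca hosts and in 19 of 25 in NSG hosts. The median spleen minus bone marrow difference was -2.82 in Ptprca and -5.32 in NSG mice on the log2(CPM + 1) scale, and spleen was at 0 in 0 and 8 of these pairs. In the limma fit over both strains, 0 of 373 barcodes (0%) passed the adjusted threshold, 0 of them members. This fit and the other organ fits treated the 2 organs of a mouse as independent. With the mouse as a fixed block, 0 barcodes were called over both strains as well. Among the 23 members, 20 were lower and 3 higher in spleen, 1 with an unadjusted p under 0.05 (34 of all 373, 9.12%), and the median difference was -1.64 against -1.37 over all 373. The members' median was thus close to that of all barcodes tested, of which 320 were lower in spleen. With each library centred on its mean over the tested barcodes, every difference rose by 1.42 and the members were split into 11 higher and 12 lower in spleen, so their organ direction in this fit depends on the scaling.

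The organ contrast within each strain gave few calls. In Ptprca mice 0 of 373 barcodes (0%) and 0 members were called by limma, 1 member had an unadjusted p under 0.05 (2.14% of all barcodes), and the members' median was -1.06 against -0.84. Of the 23 members, 6 were higher and 17 lower in spleen, or 10 and 13 after centring. That member was GFP_Barcode_122306, lower in spleen in 3 of 3 mice, with a difference of -4.27 (SE 1.55, limma adjusted p = 1). In NSG mice 1 of 373 barcodes (0.268%) and 0 members were called, 1 member had an unadjusted p under 0.05 (11.3% of all barcodes), and both medians were -1.66, or 0.36 after centring. Of the members, 2 were higher, 19 lower and 2 at 0 in both organs of all NSG mice, or 14 higher and 9 lower after centring. In the interaction of organ and strain, 0 of 373 barcodes (0%) and 0 members were called, and GFP_Barcode_57652 was the 1 member with an unadjusted p under 0.05 (4.02% of all barcodes).

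The members that reached 1000 CPM in both strains did so in 1 mouse of each strain. GFP_Barcode_57929, from 8.13 CPM at baseline, was at 11816 CPM in bone marrow and 2795 CPM in spleen of Ptprca mouse 2. It was at 0 in the 4 libraries of the other Ptprca mice, and at 9.08 CPM in bone marrow and 2186 CPM in spleen of NSG mouse 6. The clone was thus high in both organs of mouse 2, with bone marrow above spleen, and high in spleen alone in mouse 6. The mouse 6 spleen value came from repeats of 2890 and 1482 CPM.

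GFP_Barcode_17862 was at 2877 and 505 CPM in bone marrow and spleen of Ptprca mouse 3 and at 3041 and 333 CPM in NSG mouse 5, almost the same values in hosts of different strains. In NSG mouse 4 it was at 1328 CPM in bone marrow and 0 in spleen, and in mouse 6 at 160 and 42.1 CPM. GFP_Barcode_6161 was at 1605 and 1298 CPM in bone marrow and spleen of Ptprca mouse 3, and at 3287, 520 and 816 CPM in the bone marrow of NSG mice 4, 5 and 6. Its NSG spleens held 65.3, 40.4 and 3.28 CPM. Both clones were seen in all 3 NSG mice and in 1 of 3 Ptprca mice.

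Clones of 1 Ptprca mouse made up the largest class, with 14 of the 31 members at 1000 CPM or more in a single Ptprca mouse. In mouse 1, GFP_Barcode_95320 was at 8201 CPM in bone marrow and 498 CPM in spleen, and GFP_Barcode_925 at 6564 and 322 CPM. GFP_Barcode_95320 was absent from both organs of mouse 2 and was at 1974 CPM in the spleen of NSG mouse 4, where its bone marrow value was 0. GFP_Barcode_36384, at 2264 and 315 CPM in mouse 1, was also seen at lower levels in mice 2, 4 and 6, with spleen above bone marrow in each of those 3.

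A further 7 clones of single Ptprca mice were higher in bone marrow than in spleen. GFP_Barcode_21751, GFP_Barcode_15141 and GFP_Barcode_63118 were at 3890, 3277 and 2967 CPM in mouse 1 bone marrow and at 67.7, 440 and 51.8 CPM in its spleen. In mouse 2, GFP_Barcode_14774 was at 3974 and 594 CPM and GFP_Barcode_21107 at 1740 and 1018 CPM in bone marrow and spleen. In mouse 3, GFP_Barcode_4815 was at 4437 and 559 CPM and GFP_Barcode_51535 at 3160 and 37.1 CPM. Every one of these 7 clones was above 0 in the spleen of its mouse. The 37.1 CPM of GFP_Barcode_51535 is of a size not read as presence of a clone. Of the 9 members that peaked in NSG mice, 5 were at 0 in the matching spleen, where repeats differed most. GFP_Barcode_56, GFP_Barcode_4815, GFP_Barcode_14774 and GFP_Barcode_21107 were at 0 in all 6 NSG libraries, and GFP_Barcode_69220 and GFP_Barcode_11384 in all 6 Ptprca libraries.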

How the data were processed

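Barcodes were counted in genomic DNA of 13 libraries. Per the labels' protocols, lysates were split into technical replicates and amplified in 2 rounds of PCR. The submitters' processing notes name Bowtie 1.2.2 and R 3.6, and the sources used here give no settings. The deposited table holds the authors' CPM values, summing to 1000000 per library. All 2795 values above 0 and under 60 CPM resolved into whole reads of 2 repeats (tolerance 1e-06 CPM), as a mean of the repeats' CPM gives, so count models were not used.

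Tested barcodes had 10 CPM or more in 3 or more of the 12 disease libraries. The test was limma 3.58.1 (R 4.3.3) with a variance trend on log2(CPM + 1), Benjamini-Hochberg adjustment over the 373 barcodes at 0.05, 6 libraries per strain comparison and 4 group means over 12 libraries for organ contrasts. The pseudocount understates changes of low barcodes. The script was tested on simulated data, where 20 barcodes each carried a log2 difference of 2, 4 or 6. Of these, the strain fits in each organ and the interaction fit recovered 0, 1 and 1. The organ fit recovered 1, 4 and 9 over both strains. It recovered 0, 3 and 3 in Ptprca and 0, 1 and 2 in NSG mice. Most of these differences were missed, so a barcode that was not called can still differ. Intervals are Wilson 95%. Python 3.11.15, pandas 2.3.3 and numpy 2.4.6 gave the descriptions.

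Groups came from titles. Mouse numbers name the same animal, and its organs' deviations from their group means had correlations of 0.773 to 0.796 (Ptprca) and 0.208 to 0.254 (NSG). Replicates were separate mice. Members, named barcodes (all members, and those beside each limit) and tests were chosen with earlier results of these data known, and the rare barcodes of 10000 CPM or more were named after their values were seen. Alternatives were other pseudocounts, filters, scaling, no variance trend, a mouse block and each mouse left out. For the strain comparisons, the mouse block was fitted to bone marrow and spleen libraries together. The omission of mice 1 and 5 and the fits within 1 strain were added after seeing the data.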

Additional observations from a re-analysis of the deposited data

Results flagged for a closer look

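GFP_Barcode_57652 stood out because its organ difference pointed in opposite directions in the 2 strains: spleen was above bone marrow in 3 of 3 Ptprca mice and below it in 3 of 3 NSG mice. The interaction was -9.01 on the log2(CPM + 1) scale, with an unadjusted p of 0.00716 and a limma adjusted p of 0.534 over 373 barcodes, so it failed the correction. With the mouse as a block the limma adjusted p was 0.229, and over each mouse left out the interaction stayed between -11.00 and -6.29. The value of -6.29 was without mouse 5, where the clone was at 0 in spleen. Without that mouse the organ difference in NSG mice was -4.07. Repeats differed most in the NSG spleens, so a 0 there does not place the clone below the floor.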

How the results depend on the processing

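Barcodes called between strains in bone marrow numbered 4 (1 higher and 3 lower in NSG). They numbered 10 without the filter (6 and 4), 14 with a filter of 100 CPM (8 and 6), 12 without the variance trend (8 and 4), 0 without the bone marrow libraries of mice 1 and 5, and 1 to 2 with each mouse left out. Members called numbered 1, and 2 under both other filters. They numbered 0 without mice 1 and 5 and with each mouse left out (0 to 0). They also numbered 0 with the mouse as a replicate block, fitted to bone marrow and spleen together. In spleen the count was 4 (2 and 2), against 1 with a pseudocount of 0.1, 0 without the filter, 7 with a filter of 100 CPM (3 and 4), 7 with centred log-ratios (3 and 4), 0 without the variance trend, 0 without mice 1 and 5, and 0 to 2 with each mouse left out. Within NSG mice the organ contrast gave 1, against 0 without the filter, 0 with centred log-ratios, 4 with the replicate block, 0 in NSG libraries alone, and 0 to 6 with each mouse left out. No member was called under any alternative in spleen or in any organ contrast, and the other organ contrasts gave 0 calls throughout. The replicate block changed no other call of a member. Centring moved every strain difference by -0.71 in bone marrow and 0.49 in spleen, and every organ difference by 0.83 in Ptprca and 2.02 in NSG mice. The rule gave 31 members, 17 from spleen alone (11 of them among the 31), 19 with a baseline under 50 CPM, 36 from bone marrow alone (24 shared), and 26 to 30 with each mouse left out. Recurrence was 15.4%, or 29.0% at 100 CPM. The cause of these changes was not tested. Technical repeats limit low values most in the NSG spleens, and 1 baseline library gives no spread between baseline samples.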
